A study of Mus musculus with 4 samples.

Results

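The DEAD box and DEAH box RNA helicases were examined in hematopoietic stem cells of mice in which Cre targeted Dis3, the gene of a nuclease of the RNA exosome, the complex that trims and degrades RNA from its 3′ end. Members were taken by gene symbol, as every symbol that starts with Ddx or Dhx followed by a digit. Of 54 such symbols 4 were left aside, namely Ddx3y, Ddx26b, Ddx58 and Dhx58, which left 50 members (35 Ddx and 15 Dhx genes) among 24411 genes. Enough reads for a test were present for 48 members, among 12244 tested genes. The members without a test were Ddx43, with 4 and 4 counts in Dis3-/- and 3 and 1 counts in wild-type libraries, and Ddx25, with 0 and 1 counts in Dis3-/- and 1 and 4 counts in wild-type libraries.

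The Dis3-/- group held 2 libraries of stem cells from Dis3fl/fl;Mx-Cre marrow, and the wild-type group held 2 libraries from Dis3fl/fl marrow without Cre, all on a C57BL/6 background. Mx-Cre is driven by an interferon-inducible promoter that is not specific to blood cells. Marrow of either genotype had been engrafted for 4 weeks in lethally irradiated CD45.1 hosts before the interferon inducer pIpC, a double-stranded RNA mimic, was injected on days 0 and 2 at 300 µg. That wild-type chimeras were injected too is read from protocol text common to both genotypes. On day 4, Lineage-negative EPCR+CD150+CD48- cells were sorted, 100 to a library, and full-length total RNA was sequenced by RamDA-seq, so both groups share irradiated hosts, engraftment and, as read from that text, pIpC.

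DEAD and DEAH box proteins are ATPases that bind RNA and pull short duplexes apart or strip proteins from RNA. Both families are named after the amino acids of motif II, the site that couples ATP hydrolysis to RNA binding, which a histidine ends in the DEAH proteins. Most members act at 1 step in the life of an RNA, including the assembly of ribosomes, the cycle of the spliceosome, the release of mRNA from the nucleus, translation and decay. Blood stem cells are known for a low rate of protein synthesis.

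The coding sequence around motif II is shown for members on which the results turn, because the families are named after it. Capitals mark the bases that encode motif II, and each stretch is written 5′ to 3′ on the coding strand from GENCODE M21 transcripts (GRCm38, the assembly called mm10).
Ddx39: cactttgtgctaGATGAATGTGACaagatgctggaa
Ddx39b: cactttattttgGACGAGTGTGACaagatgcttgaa
Ddx1: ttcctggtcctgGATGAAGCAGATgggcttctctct
Ddx21: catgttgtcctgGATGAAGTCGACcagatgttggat
Ddx50: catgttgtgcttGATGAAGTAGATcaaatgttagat
Dhx9: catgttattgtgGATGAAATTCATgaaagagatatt
Dhx15: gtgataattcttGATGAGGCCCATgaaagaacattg
Dhx37: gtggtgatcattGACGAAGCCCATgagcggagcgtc
Ddx60: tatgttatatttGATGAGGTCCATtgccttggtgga
The last codon in capitals was CAT in the Dhx genes shown and in Ddx60, and GAT or GAC in the other Ddx genes shown. The closely related Ddx39 and Ddx39b both had TGT as the codon before it. In the genome these bases lie at chr8:83721110-83721121 for Ddx39 and at chr17:35247090-35247101 for Ddx39b (both plus strand), at chr10:62591881-62591892 for Ddx21 and at chr1:153468889-153468900 for Dhx9 (both minus strand). For Ddx1 they span an intron (chr12:13230379-13231453, minus strand).

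Library depth ranged from 6085367 to 6442740 counts in Dis3-/- and from 6251761 to 6818535 counts in wild-type libraries. A gene without reads is bounded by 3 counts, or 0.469 to 0.505 CPM in Dis3-/- and 0.432 to 0.476 CPM in wild-type libraries, which covers counting error only. The targeted gene Dis3 had 23.6 and 30.2 CPM in Dis3-/- libraries, against 55.9 and 53.3 CPM in wild-type libraries; the labels do not say which exons were floxed. Genes of G2 and M phase, such as Top2a and Cdk1, were called higher in Dis3-/- libraries in 16 of 16 cases, against 12.7% of all genes. They summed to 2149 and 2299 CPM in Dis3-/- libraries, against 832 and 963 CPM in wild-type libraries. S phase genes were called higher in 14 of 16 cases, and all 16 had a log2 fold change above 0. Their sums were 3749 and 3442 CPM in Dis3-/- and 2342 and 2267 CPM in wild-type libraries. Of the stem cell markers reported here, Kit, Hlf, Fgd5 and Gata2 were called lower in Dis3-/- libraries and none was called higher. Among all genes 10.2% were called lower and 12.7% higher. Not called were Mecom (log2 fold change 0.03), Ctnnal1 (0.01), Meis1 (-0.17), Procr (0.04) and Slamf1 (-0.10). The sort marker genes Procr (40.1 and 46.0 CPM in Dis3-/-, 43.1 and 40.5 CPM in wild type) and Slamf1 (21.0 and 25.2 CPM in Dis3-/-, 30.4 and 18.9 CPM in wild type) were present in every library. Cd48, against which the cells were sorted, was at 13.8 and 14.2 CPM in Dis3-/- and 17.6 and 24.1 CPM in wild-type libraries. Of 5 tested markers of multipotent and lymphoid progenitors, 4 were called lower, against 10.2% of all genes, and all 5 had a log2 fold change below 0. The listed markers summed to 348 and 299 CPM in Dis3-/- and 458 and 482 CPM in wild-type libraries. The other lists of markers of blood and stromal cells had 8 members called lower (Treml1, Gata1, Prtn3, Csf3r, Itgam, Cpa3, Pecam1 and Pdgfrb) and none called higher. Of the tested markers these were 1 of 5 megakaryocyte, 1 of 3 erythroid, 2 of 3 granulocyte and 1 of 3 monocyte and macrophage genes. They were also 1 of 1 mast cell and basophil gene and 2 of 3 endothelial and stromal genes. None of 1 B cell and 2 T and NK cell genes was called, and 10.2% of all genes were called lower. Some of their genes were abundant, such as Lyz2, at 180 and 168 CPM in Dis3-/- and 183 and 198 CPM in wild-type libraries, and Csf3r, at 122 and 125 CPM in Dis3-/- and 212 and 202 CPM in wild-type libraries. Of the markers listed, Il7r, Hbb-bs, Ly6c2, Ms4a1, Ebf1, Cd3e, Cd3g, Mcpt8 and Ms4a2 were listed at 0 in every library. The part of the cell division genes, of the stem cell markers and of these other markers in the helicase results was not tested. In bulk libraries a change in the share of cells that express a gene and a change in its RNA per cell cannot be told apart.

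The members together held 4983 and 5023 TPM (a level per transcript length, scaled to the same total in each library) in Dis3-/- libraries. Wild-type libraries held 5043 and 4862 TPM, so that the summed TPM overlapped between genotypes at 0.486% to 0.504% of all TPM. In CPM, the scale of the edgeR calls, the sums did not overlap, at 7504 and 7339 in Dis3-/- libraries and 7119 and 6964 in wild-type libraries. Whether the summed level differs thus depends on the scale. Ddx5, a coregulator of transcription and of microRNA processing, was the most abundant and took 20.8% and 20.5% of the members' TPM in Dis3-/- libraries, against 23.9% and 23.8% in wild-type libraries. With Ddx17, Ddx39b, Dhx15 and Ddx3x it made up 49.0% and 48.8% in Dis3-/- and 51.8% and 51.4% in wild-type libraries. Both shares were lower in each Dis3-/- library than in either wild-type library.

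A total of 13 of the 48 tested members passed an adjusted p of 0.05 in edgeR (27.1%), against 23.0% of all 12244 genes, so that the share of called members was near that of genes at large. In direction 12 members were higher in Dis3-/- cells (25.0%, against 12.7% of all genes) and 1, Ddx60, was lower (2.08%, against 10.2%). The median log2 fold change was 0.10 over members, against -0.003 over all genes, and 29 members lay above 0 and 19 below. CPM of the genotypes did not overlap for 34 of 48 members (70.8%, against 62.4% of all genes), 22 of them higher in Dis3-/- cells (31.9% of all genes). Sizes were small: 4 of 48 members reached an absolute log2 fold change of 0.5, against 22.8% of all genes, and none reached 1. The median absolute log2 fold change was 0.21 over members and 0.26 over all genes. These counts depend on the tool and the scale: DESeq2 called 7 members, all of them higher, and 14.2% of all genes, and limma on log2(TPM + 1) called 6 members higher (8.79% of all genes) and 3 lower (12.1%). The TPM scale shifts the median of all genes to -0.11 and that of the members to -0.01. Leaving out 1 library at a time left 8 to 12 members called, against 18.6% and 18.4% of all genes without Dis3-/- library 1 or 2 and 16.9% and 17.1% without wild-type library 1 or 2.

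**Figure D1:**
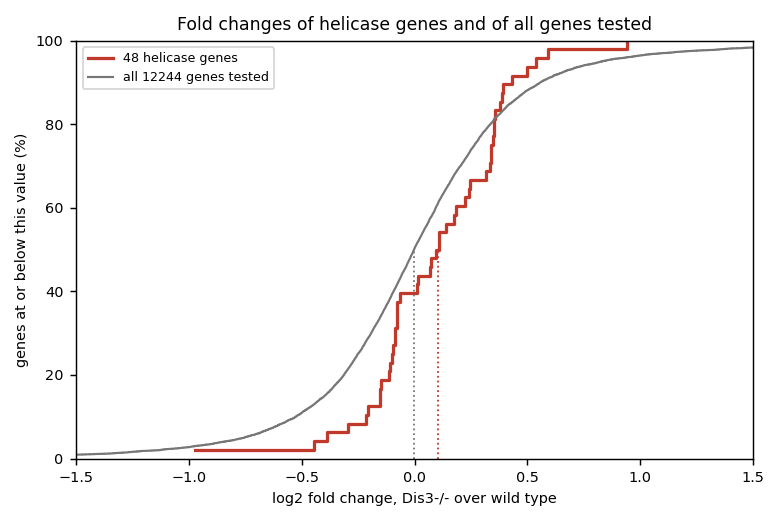
Cumulative share of genes (vertical axis, percent) at or below each log2 fold change of Dis3-/- over wild type (horizontal axis), for 48 helicase genes and for all 12244 tested genes; dotted lines mark the medians. The helicase genes are part of all tested genes, so their curve cannot span a wider range. Its median is at 0.10, against -0.003 for all genes.

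The largest log2 fold change among called members was that of an mRNA export helicase, and 3 of the 4 members of that role were called, all higher, against 12.7% of all genes called higher. Ddx39 (chr8:83715177-83726904, plus strand), which with its close relative Ddx39b loads export factors onto spliced mRNA, had 207 and 237 TPM in Dis3-/- libraries, against 130 and 119 TPM in wild-type libraries. Both Dis3-/- libraries lay well above both wild-type libraries. Relative to wild type this was a fold of 1.92, or 0.94 ± 0.09 (SE) on the log2 scale (adjusted p = 1.65e-05 in edgeR). Ddx39b (chr17:35241746-35253707, plus strand), the export and splicing factor of the TREX complex, had 491 and 504 TPM in Dis3-/- libraries and 410 and 407 TPM in wild-type libraries. Replicates differed little beside the gap between genotypes, and the log2 fold change was 0.39 ± 0.07 (adjusted p = 0.00164). Both were called in all 15 alternative settings. Ddx39 took 29.7% and 32.0% of the counts of the pair in Dis3-/- libraries, against 24.0% and 22.7% in wild-type libraries. The coding sequences of the pair were 81.7% identical and shared no window of 50 bases.

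Exons of Ddx39 overlap those of Adgre5, a surface receptor gene on the opposite strand, over 895 bases, and the deposited estimates divide reads between these genes. The count of Ddx39 was not whole in 2 libraries, and in these the sum of both genes was whole (tolerance 0.01). In the other libraries the count of each gene was whole by itself. Adgre5 itself was at 359 and 309 counts in Dis3-/- and 399 and 465 counts in wild-type libraries and was not called. With the reads of both genes summed, an alternative chosen after seeing the data, the log2 fold change was 0.51 ± 0.08 (edgeR adjusted p = 6.24e-04). This is lower in size than for Ddx39 alone. The sum also holds every read of Adgre5, whose own log2 fold change was -0.27. It therefore cannot measure how much of the change in Ddx39 rests on shared reads. The sums were 1232 and 1353 counts in Dis3-/- libraries and 978 and 956 counts in wild-type libraries.

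Ddx19a and Ddx19b, neighbours on chromosome 8, encode helicases that release mRNA from its carrier proteins at the outer face of the nuclear pore. Ddx19a (chr8:110974991-110997823, minus strand) had 71.3 and 69.4 TPM in Dis3-/- libraries, against 58.5 and 61.8 TPM in wild-type libraries, and a log2 fold change of 0.34 ± 0.10 (edgeR adjusted p = 0.0316). Ddx19b (chr8:111003186-111031751, minus strand) had 19.6 and 18.0 TPM in Dis3-/- libraries, against 22.0 and 25.2 TPM in wild-type libraries, with a log2 fold change of -0.21 ± 0.12 (adjusted p = 0.236). For neither gene did the levels overlap between genotypes, which in CPM held for 62.4% of all genes. The call of Ddx19a was lost in DESeq2 (adjusted p = 0.142), with library totals in place of TMM scaling (0.0526), on the 3 TPM settings (0.117 to 0.135) and without Dis3-/- library 1 (0.113), wild-type library 1 (0.162) or wild-type library 2 (0.0515).

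The split between these genes is itself an estimate: the count of Ddx19a was not whole in 4 of 4 libraries, while its sum with Ddx19b was (tolerance 0.01). Their coding sequences were 93.6% identical (1342 of 1434 aligned bases), and 48.6% of the 50-base coding windows of Ddx19a also occur in Ddx19b. The longest identical run was 275 bases. The stretch shown is the part where they differ most, with the 27 differing bases among 120 in capitals, while around motif II both read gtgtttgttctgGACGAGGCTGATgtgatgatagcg. Bases are counted from the start codon, from 404 to 523 in Ddx19a and from 407 to 526 in Ddx19b.
Ddx19a: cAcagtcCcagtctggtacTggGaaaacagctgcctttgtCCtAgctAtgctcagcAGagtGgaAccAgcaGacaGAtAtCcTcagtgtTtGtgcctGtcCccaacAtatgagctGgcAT
Ddx19b: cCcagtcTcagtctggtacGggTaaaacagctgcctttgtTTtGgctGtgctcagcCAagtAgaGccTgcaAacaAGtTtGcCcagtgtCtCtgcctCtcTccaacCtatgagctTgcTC
The sum of both genes was 834 and 831 counts in Dis3-/- and 834 and 848 counts in wild-type libraries. Ddx19a was assigned 57.8% and 59.1% of it in Dis3-/- and 50.2% and 48.1% in wild-type libraries. With both summed, a choice made after seeing the data, the log2 fold change was 0.08 ± 0.09 (edgeR adjusted p = 0.562), and the call was not present in the sum.

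**Figure D2:**
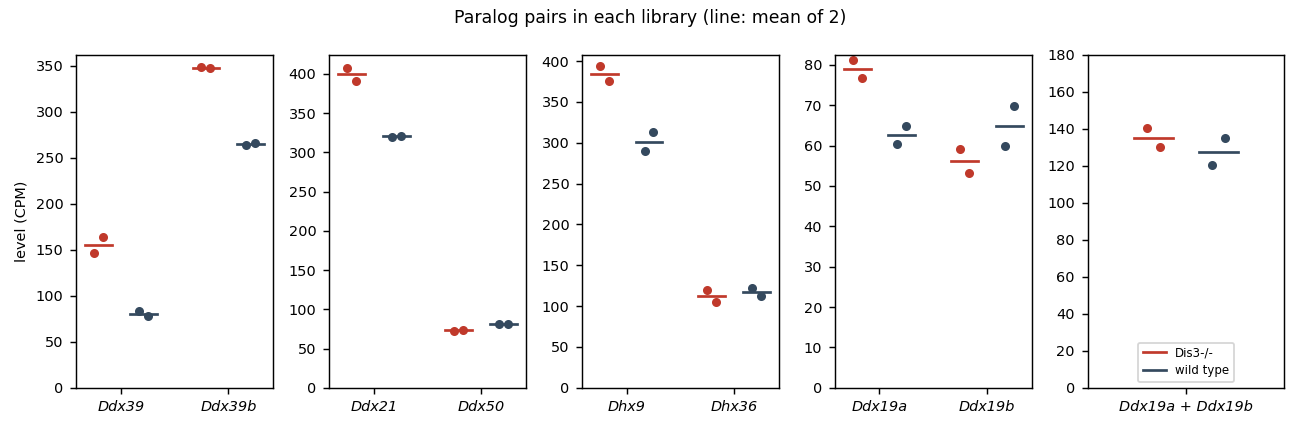
Levels in CPM (vertical axis, from 0) of 4 paralog pairs in each library, Dis3-/- left of wild type within each gene, with points for libraries and lines for means of 2; the last panel shows the sum of Ddx19a and Ddx19b. The summed Ddx19 pair overlaps between genotypes (140 and 130 CPM in Dis3-/-, 120 and 135 CPM in wild type), whereas Ddx39 and Ddx39b are both higher in Dis3-/- libraries.

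Among 16 members that act in ribosome assembly, 5 were higher in Dis3-/- cells and none lower (31.2%, against 12.7% of all genes called higher and 23.0% called in either direction). The median log2 fold change was 0.21, against -0.003 over all genes, and 14 of the 16 lay above 0, as did 49.7% of all genes. Ddx21 (chr10:62580247-62602298, minus strand), a nucleolar helicase that acts in rRNA transcription and processing, had 190 and 187 TPM in Dis3-/- libraries, against 164 and 162 TPM in wild-type libraries. Replicates were nearly equal, and the log2 fold change was 0.32 ± 0.07 (edgeR adjusted p = 0.00541). Its paralog Ddx50, also nucleolar, had 65.8 and 68.5 TPM in Dis3-/- and 81.2 and 80.1 TPM in wild-type libraries and was not called (log2 fold change -0.15 ± 0.10, adjusted p = 0.282). Ddx21 took 84.9% and 84.2% of the counts of this pair in Dis3-/- libraries, against 79.7% in both wild-type libraries. The groups of this share did not overlap, but 2 against 2 libraries cannot give an exact permutation p below 0.333.

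The other 4 called ribosome assembly members were Dhx37, Ddx56, Ddx18 and Ddx27. Dhx37 (chr5:125413747-125434139, minus strand), which removes the U3 RNA from the small subunit precursor, had 27.6 and 33.8 TPM in Dis3-/- libraries and 24.9 and 22.0 TPM in wild-type libraries. It was higher by 0.50 ± 0.13 on the log2 scale (edgeR adjusted p = 0.0140), and its Dis3-/- libraries were farther apart than its wild-type libraries. Ddx56 (chr11:6257545-6269786, minus strand), a nucleolar factor of the large subunit, had 49.8 and 51.8 TPM in Dis3-/- and 44.9 and 38.8 TPM in wild-type libraries (0.39 ± 0.11, adjusted p = 0.0208). Ddx18 (chr1:121553835-121567980, minus strand), whose yeast counterpart acts in both subunits, had 103 and 99.0 TPM in Dis3-/- and 87.2 and 84.3 TPM in wild-type libraries. Ddx18 had a log2 fold change of 0.35 ± 0.10 (adjusted p = 0.0175). Its relative Ddx10, a small subunit factor in yeast, was not called (0.07 ± 0.11, adjusted p = 0.698). Ddx27 (chr2:167015313-167034945, plus strand), which processes the rRNA of the large subunit, had 96.5 and 91.5 TPM in Dis3-/- and 84.7 and 76.3 TPM in wild-type libraries (0.33 ± 0.10, adjusted p = 0.0224).

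These 4 calls were less firm than that of Ddx21, which was lost only on the 3 TPM settings (adjusted p of 0.0618 to 0.0812). All 4 were lost in DESeq2, with adjusted p of 0.0578 for Dhx37, 0.0801 for Ddx18, 0.0902 for Ddx27 and 0.0920 for Ddx56, and on the TPM settings. Dhx37 and Ddx56 were lost without Dis3-/- library 2 (0.111 and 0.0576) or wild-type library 2 (0.0685 and 0.151). Ddx27 was lost without Dis3-/- library 1 (0.0990) or wild-type library 2 (0.139), and Ddx18 without Dis3-/- library 1 (0.0788), wild-type library 1 (0.0564) or wild-type library 2 (0.0699). The count of 5 higher members thus fell to 1 in DESeq2, to 0 on TPM, to 3 without either Dis3-/- library and to 1 without wild-type library 2. The 11 members that did not pass ranged in log2 fold change from -0.15 (Ddx50) to 0.34 (Ddx31, a nucleolar helicase chosen after its values were seen, adjusted p = 0.0873). They include Ddx49, Ddx51, Ddx52, Ddx54, Ddx55 and Dhx33, from -0.08 (Ddx54) to 0.23 (Ddx49). Of the abundant ones, Ddx24, whose yeast counterpart acts in the large subunit, had 106 and 103 TPM in Dis3-/- and 113 and 111 TPM in wild-type libraries (0.01 ± 0.08, adjusted p = 0.931), and Ddx47, whose yeast counterpart acts in the small subunit, had 89.7 and 95.0 TPM in Dis3-/- and 83.4 and 85.2 TPM in wild-type libraries (0.24 ± 0.11, adjusted p = 0.121).

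**Figure D3:**
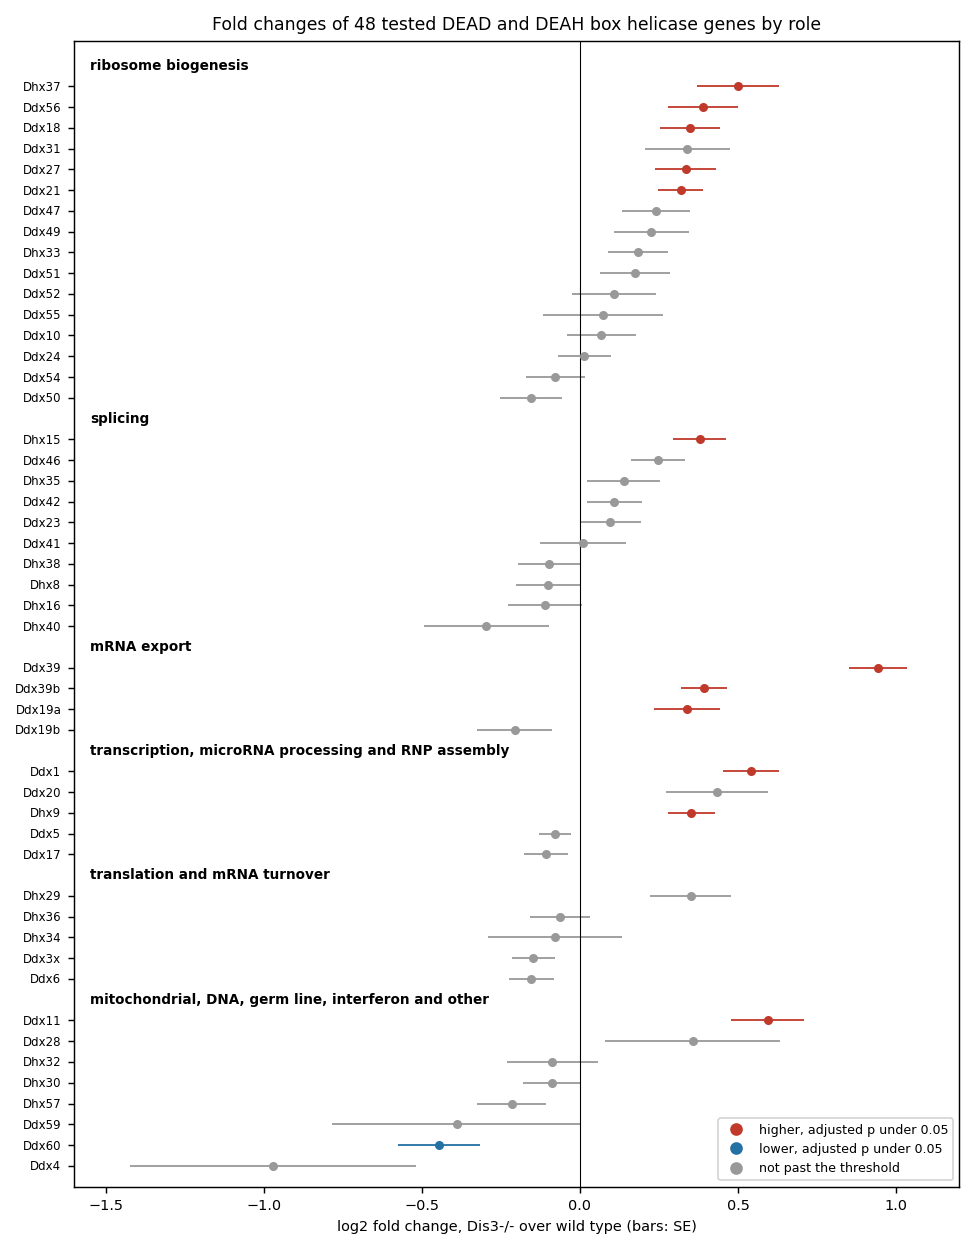
Log2 fold change of Dis3-/- over wild type (horizontal axis, bars are SE from edgeR) of the 48 tested members, grouped by role down the page, with Ddx39b under mRNA export. Called members are coloured; 14 of 16 ribosome assembly members lie above 0, and Ddx60 is the only member called lower.

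Of 11 splicing members 2 were higher and none lower (18.2%, against 12.7% of all genes called higher and 23.0% called in either direction), with a median log2 fold change of 0.10. Besides Ddx39b this was Dhx15 (chr5:52150203-52190546, minus strand), which takes the spliceosome apart after splicing and, in yeast, also acts in ribosome assembly. Dhx15 had 299 and 265 TPM in Dis3-/- libraries, against 229 and 240 TPM in wild-type libraries, with a log2 fold change of 0.38 ± 0.08 (edgeR adjusted p = 0.00515). The call was lost only on log2(TPM + 1) without the count filter (adjusted p = 0.110). Its relative Dhx32, of little-known role, was not called (-0.09 ± 0.14, adjusted p = 0.711). Ddx23, the helicase that releases U1 from the start of the intron, had 76.0 and 87.1 TPM in Dis3-/- and 79.9 and 84.9 TPM in wild-type libraries and was not called (0.10 ± 0.10, adjusted p = 0.515). Ddx46, which acts when U2 is recruited, lay just outside the threshold (0.25 ± 0.09, adjusted p = 0.0519) and passed it in 5 of the 15 alternatives; it was picked after its values were seen. The DEAH helicases that drive the splicing cycle forward showed no call, Dhx8 at -0.10, Dhx16 at -0.11 and Dhx38 at -0.10 on the log2 scale. Ddx41, Ddx42, Dhx35 and Dhx40 ranged from -0.30 (Dhx40) to 0.14 (Dhx35), also without a call.

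In the group that acts in transcription, microRNA processing and assembly of RNA-protein particles, 2 of 5 members were higher and none lower (40.0%, against 12.7% of all genes called higher). Ddx1 (chr12:13219307-13249174, minus strand), a component of the tRNA ligase complex, had 142 and 134 TPM in Dis3-/- libraries, against 106 and 98.1 TPM in wild-type libraries. Every Dis3-/- value exceeded every wild-type value, with a log2 fold change of 0.54 ± 0.09 (edgeR adjusted p = 7.50e-04), and the call held in all 15 alternatives. Dhx9 (chr1:153455756-153487688, minus strand), which unwinds double-stranded RNA and RNA-DNA hybrids, had 188 and 184 TPM in Dis3-/- libraries and 153 and 163 TPM in wild-type libraries. Its log2 fold change was 0.35 ± 0.07 (adjusted p = 0.00412), lost only on log2(TPM + 1) without the count filter (0.0795). Dhx9 took 76.6% and 78.1% of the summed counts of itself and its relative Dhx36 in Dis3-/- libraries, against 70.2% and 73.5% in wild-type libraries.

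The pair Ddx5 and Ddx17, cofactors of the Microprocessor, did not pass. Ddx5 had 1037 and 1032 TPM in Dis3-/- libraries, against 1204 and 1158 TPM in wild-type libraries (edgeR log2 fold change -0.08 ± 0.05, adjusted p = 0.292). Ddx17 had 422 and 446 TPM in Dis3-/- libraries and 527 and 462 TPM in wild-type libraries (-0.11 ± 0.07, adjusted p = 0.292). Ddx5 held 69.9% and 69.1% of the counts of the pair in Dis3-/- libraries and 68.1% and 70.2% in wild-type libraries, which overlap. Ddx20, a member of the SMN complex chosen here after its values were seen, had 34.9 and 27.2 TPM in Dis3-/- and 26.0 and 23.7 TPM in wild-type libraries (0.43 ± 0.16, adjusted p = 0.0691), and passed without Dis3-/- library 2 (0.0200) and with no count filter (0.0378).

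None of the 5 members of translation and mRNA turnover passed, against 23.0% of all genes, and their median log2 fold change was -0.08. With 5 members this does not set the role apart from genes at large. At an unadjusted p under 0.05 the edgeR test passed 2 of these 5 members, against 4362 of all 12244 genes. The 2 were Ddx6, which was lower, and Dhx29, which was higher, and Ddx3x was not among them. DESeq2 called none of the 5 members, against 14.2% of all genes. Ddx3x, which helps ribosomes scan structured leaders, had 192 and 205 TPM in Dis3-/- libraries, against 244 and 230 TPM in wild-type libraries (-0.15 ± 0.07, adjusted p = 0.144). Ddx6, a repressor of translation that works with the decapping machinery, had 129 and 137 TPM in Dis3-/- libraries, against 166 and 154 TPM in wild-type libraries (-0.15 ± 0.07, adjusted p = 0.136). Both were lower without overlap in TPM and in CPM, as were 30.5% of all genes in CPM. On log2(TPM + 1), which shifts all genes downward, limma called Ddx5 (-0.19, adjusted p = 0.0451), Ddx3x (-0.26, 0.0367) and Ddx6 (-0.26, 0.0456) lower. With its Y-linked paralog Ddx3y added, Ddx3x was at -0.17 ± 0.06 (adjusted p = 0.0718), a sum chosen after seeing the data. Dhx36, which unwinds G-quadruplexes, was at -0.06 ± 0.10 (adjusted p = 0.675), and Dhx29, an initiation factor for structured mRNA picked after its values were seen, at 0.35 ± 0.13 (adjusted p = 0.0631). Dhx34, which acts in nonsense-mediated decay, was at -0.08 ± 0.21 (adjusted p = 0.832).

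Ddx11 (chr17:66123513-66152174, plus strand), a DNA helicase of sister chromatid cohesion and the member of this set that works on DNA, had 38.6 and 40.1 TPM in Dis3-/- libraries, against 26.3 and 30.1 TPM in wild-type libraries. The genotypes did not overlap, and the log2 fold change was 0.59 ± 0.12 (edgeR adjusted p = 0.00239), lost only on log2(TPM + 1) without the count filter (0.0777). Genes of the cell cycle were higher in the same libraries, with the sums given above, and their part in the level of Ddx11 was not tested. Ddx4, the germ cell helicase Vasa, was at 12 and 14 counts in Dis3-/- and 30 and 25 counts in wild-type libraries and did not pass (-0.97 ± 0.45, adjusted p = 0.141). The mitochondrial ribosome factors Ddx28 (0.36 ± 0.28) and Dhx30 (-0.09 ± 0.09) were not called either, nor were Ddx59 (-0.39 ± 0.39) and Dhx57 (-0.22 ± 0.11).

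Ddx60 (chr8:61928073-62037704, plus strand), an interferon-stimulated antiviral helicase, was the member called lower. It had 13.2 and 15.7 TPM in Dis3-/- libraries, against 22.8 and 19.8 TPM in wild-type libraries, with a log2 fold change of -0.45 ± 0.13 (edgeR adjusted p = 0.0245). The call was lost in DESeq2 (0.0968), on the TPM settings (0.0659 to 0.132) and without Dis3-/- library 1 (0.130) or wild-type library 1 (0.155). Of 16 other interferon-stimulated genes, 4 were higher (Oas1a, Usp18, Cxcl10 and Bst2; 25.0%, against 12.7% of all genes called higher) and none lower. Ddx58, an interferon-stimulated RNA sensor outside both that list and the members, was lower as Ddx60 was (-0.30 ± 0.08, edgeR adjusted p = 0.0174). Dhx58, another of the symbols left aside, overlapped between genotypes in CPM and was not called (-0.15 ± 0.17, adjusted p = 0.566). The sums of the 16 listed genes were 721 and 792 CPM in Dis3-/- and 775 and 586 CPM in wild-type libraries, which overlap.

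**Figure D4:**
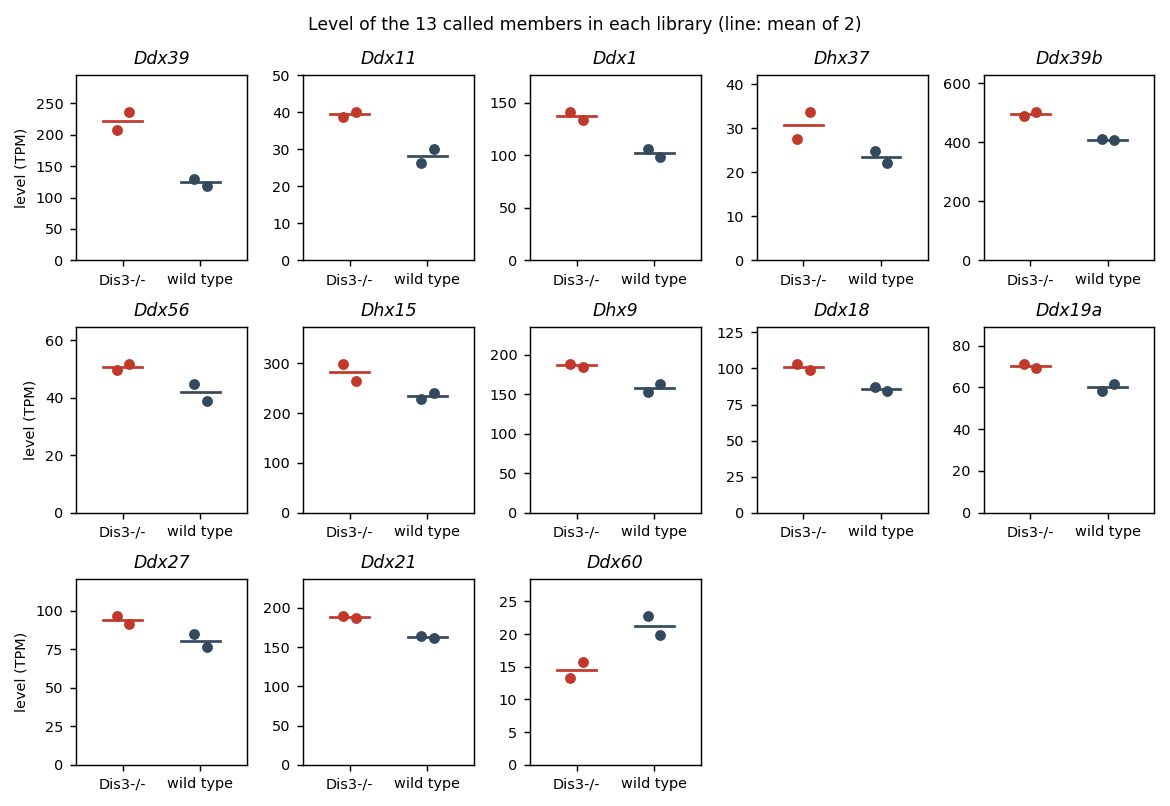
Level in TPM (vertical axis, from 0) of the 13 called members in each library, Dis3-/- left of wild type, with a line at the mean of 2. Ddx39 shows the widest gap relative to its level (207 and 237 TPM in Dis3-/-, 130 and 119 TPM in wild type), and in no panel do the genotypes overlap.

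Helicases and partner proteins outside the set were counted from lists of 94 genes. Of 91 tested, 18 were higher and 4 lower (24.2%, against 23.0% of all genes), with a median log2 fold change of 0.13. On the list of other RNA helicases, which also holds the Integrator subunit Ddx26b, 4 of 22 tested genes were higher and 1, Ddx26b itself, was lower. Eif4a1, the helicase of translation initiation, had 683 and 648 CPM in Dis3-/- libraries, against 441 and 465 CPM in wild-type libraries (0.55 ± 0.07, edgeR adjusted p = 8.17e-05), and its inhibitor Pdcd4 had 117 and 120 CPM in Dis3-/- libraries, against 179 and 180 CPM in wild-type libraries (-0.60 ± 0.08, adjusted p = 1.97e-04). Upf1, the helicase of nonsense-mediated decay, was higher (0.41 ± 0.08, adjusted p = 0.00241). Ddx26b, the Integrator subunit left aside by the rule, had 82.8 and 99.1 CPM in Dis3-/- and 139 and 135 CPM in wild-type libraries (-0.59 ± 0.10, adjusted p = 8.96e-04). Of 16 activators and inhibitors of DEAD box proteins 3 were higher and Pdcd4 was lower; Eif4h (0.37 ± 0.08, adjusted p = 0.00296) and Eif4g1 (0.32 ± 0.06, adjusted p = 0.00300), which stimulate Eif4a1, were among those higher. Eif4g1 lost its call on the 3 TPM settings (0.0526 to 0.0775). On log2(TPM + 1) without the count filter, the partner genes and other helicases named here lost their calls, with the exception of Eif4a1, Pdcd4, Ddx26b, Sarnp and Gemin4.

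Of 14 genes of the TREX export complex, in which Ddx39b acts, 3 were higher and none lower (21.4%). Alyref, the adaptor that Ddx39b loads, had 117 and 108 CPM in Dis3-/- libraries and 82.1 and 68.9 CPM in wild-type libraries (0.57 ± 0.11, edgeR adjusted p = 0.00175). Sarnp (0.61 ± 0.11, adjusted p = 0.00188) and Nxt1, a subunit of the export receptor (0.66 ± 0.18, adjusted p = 0.0158), were the others. The call of Nxt1 was lost in DESeq2 (0.0847) and without Dis3-/- library 2 (0.0704) or wild-type library 1 (0.0863). Of 21 G-patch genes, which encode activators of DEAH helicases, 3 were higher and 2 lower (23.8%), with a median of -0.02; Gpatch4 was at 0.83 ± 0.18 (adjusted p = 0.00510), Rbm10 at 0.50 ± 0.11 (0.00464) and Gpkow at 0.48 ± 0.12 (0.00898, and 0.0625 to 0.0917 on the 3 TPM settings). Of 10 genes of the Microprocessor and of the SMN complex, which assembles spliceosomal particles, 3 were higher and none lower (30.0%). These were Gemin4 (0.68 ± 0.12, adjusted p = 0.00130), Gemin5 (0.41 ± 0.10, 0.00782) and Gemin6 (1.08 ± 0.30, 0.0186). Gemin5 was lost on the 3 TPM settings (0.123 to 0.181) and without wild-type library 2 (0.0675), and Gemin6 in DESeq2 (0.0744) and without Dis3-/- library 1 (0.0834) or wild-type library 1 (0.121). Of 9 genes of the Ddx6 complex 2 were higher, Dcp2 (0.34 ± 0.09, adjusted p = 0.0183) and Eif4enif1 (0.30 ± 0.10, 0.0409). Dcp2 was lost in DESeq2 (0.0600), on the 3 TPM settings (0.241 to 0.289) and without wild-type library 1 (0.184). Eif4enif1 was lost in DESeq2 (0.147), with library totals (0.0700), on the 3 TPM settings (0.220 to 0.271) and without Dis3-/- library 1 (0.244), wild-type library 1 (0.0715) or wild-type library 2 (0.169). Shares called in either direction ranged from 21.4% to 30.0% over the lists of other helicases and partners, against 23.0% of all genes. By direction, 19.8% of the tested genes on these lists together were higher and 4.40% lower. Of all genes 12.7% were higher and 10.2% lower.

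**Figure D5:**
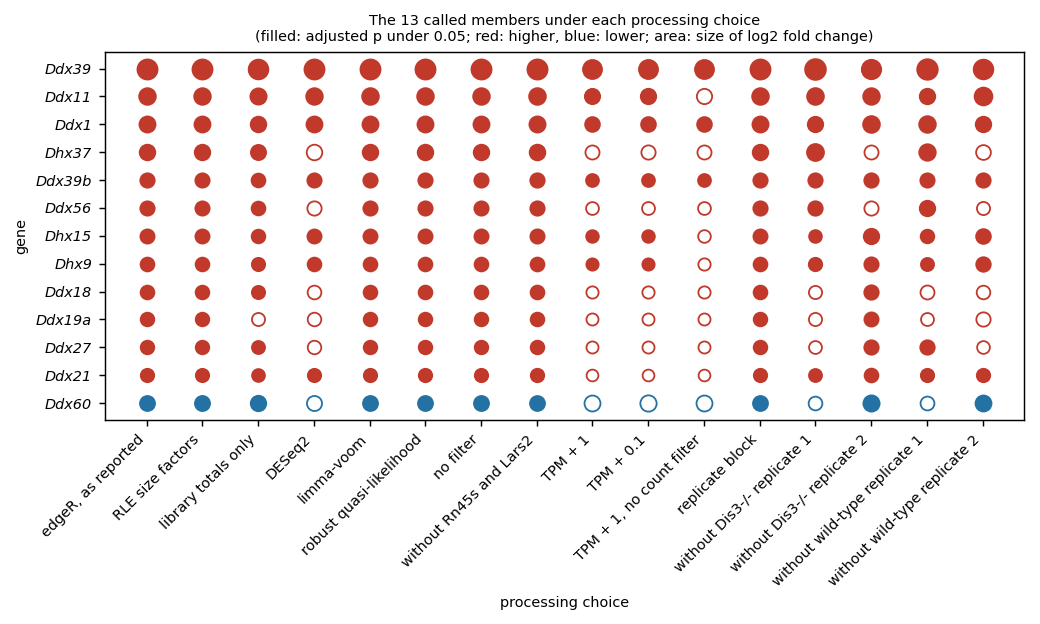
The 13 called members (vertical axis) under the reported fit and 15 alternative settings (horizontal axis); a filled circle marks an adjusted p under 0.05, red is higher and blue lower in Dis3-/- cells, and the area grows with the size of the log2 fold change. Ddx39, Ddx39b and Ddx1 are filled in every column, and no circle changes colour along its line. All settings reuse the libraries on which the members were called.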

How the data were processed

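The authors deposited 1 table of expected counts (RSEM's estimated reads per gene, not normalized) and 1 table of TPM (levels per transcript length, scaled to the same total in each library), each for 24411 genes in 4 libraries. Per the submitters' processing notes, RSEM 1.3.3, STAR 2.7.8a and Trim Galore 0.6.6 were used with the mm10 build; the sources used here give neither the annotation nor the strand setting. Per the authors' deposited expected counts, reads shared by several genes are divided by estimate, also between genes on opposite strands.

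Rounded expected counts went into edgeR 4.0.16 under R 4.3.3 (filterByExpr with minimum count 10 and minimum total 15, TMM scaling, 2-sided quasi-likelihood test, Benjamini-Hochberg adjustment over 12244 genes, threshold 0.05). SE is the absolute log2 fold change divided by the square root of F. CPM uses TMM-scaled library sizes. The procedure was tested on simulated data. Alternatives used DESeq2 1.42.0 and limma 3.58.1 on log2(TPM + 1 or 0.1), which understates changes of low genes, and leaving out each library. All called members were named, as were uncalled ones among the 15 most abundant, paralogs of called members, and up to 3 called genes per partner list with the smallest p. Members and lists were chosen with earlier results of these data known.

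By the design text each genotype had 2 mice, and no other label separates the replicates, so p-values measure the spread between these libraries, which may be technical. Replicates differed by more than counting noise (chi-square per degree of freedom 4.16 in Dis3-/-, 3.54 in wild type). Locations come from RefSeq GRCm38.p6, in which all 50 members matched (1 by an older symbol); 11 share exon bases with a gene on the other strand, of which Ddx39 was called. Motif stretches and coding identities come from GENCODE M21 transcripts. A stem cell marker is not reported here.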

Additional observations from a re-analysis of the deposited data

How the results depend on the processing

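Direction held for all 13 called members in the 15 alternatives, and Ddx39 (0.83 to 1.02), Ddx39b (0.28 to 0.40) and Ddx1 (0.43 to 0.60) kept their calls in each. Of 450 values over 30 named members and 15 alternatives, 13 reversed sign, all of members without a call. For the 13 called members a held direction was largely set beforehand. The alternatives reuse the libraries on which they were called, and in these their CPM did not overlap between genotypes. With library totals in place of TMM the members' median was 0.0615, Ddx24 was at -0.0274, and all genes split into 1352 higher and 1511 lower, against 1561 and 1250. DESeq2 called 7 members (7 higher, 0 lower), 1742 of all genes and 14 partner genes. On log2(TPM + 1) there were 6 higher and 3 lower members, the members' median was -0.00983 (all genes -0.11, 1076 higher and 1480 lower), and Ddx24 was at -0.10, Ddx23 at -0.0171 and Ddx10 at -0.0421. With TPM + 0.1 there were likewise 6 higher and 3 lower members, with a median of -0.00995, Ddx24 at -0.101, Ddx23 at -0.0174 and Ddx10 at -0.0429. On log2(TPM + 1) without the count filter 3 members were called (3 higher, 0 lower), with 950 genes and 5 partner genes; the members' median and these 3 genes stood at the values of log2(TPM + 1), -0.00983, -0.100, -0.0171 and -0.0421.

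Leaving out each replicate in turn gave 8 to 12 members (7 to 11 higher, 0 to 1 lower), 2112 to 2352 genes, 16 to 22 partner genes and a median of 0.0545 (without wild-type library 1) to 0.155 (without wild-type library 2); the lone library was assumed to vary like the other group. In these fits Ddx10 ranged from -0.0129 to 0.150, Ddx24 from -0.0228 to 0.0561 and Dhx36 from -0.158 to 0.0325. With the replicate block 13 members (12 higher, 1 lower), 2614 genes and 22 partner genes were called, at a median of 0.10; same-numbered libraries shared only a number (correlation of deviations -0.028). The cause of these shifts was not tested. With 2 libraries per genotype the median SE of a member was 0.11 on the log2 scale, and changes well above that size could also go uncalled. The smallest absolute log2 fold change among called members was 0.32, and Ddx46, at 0.25 ± 0.09, was not called.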
